A study of Mus musculus with 2 samples.

Results

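Translation initiation and elongation factors are the proteins that load ribosomes onto mRNA and move them along it. Their genes were taken as all rows of both count tables whose symbol begins with Eif or Eef and a digit, leaving out the 4E-binding proteins (Eif4ebp) and the eIF2 kinases (Eif2ak). That gave 61 of 22756 gene rows. The symbol rule also takes in 4 pseudogene rows, a few genes named for their history rather than their function, and enzymes that modify elongation factors. Footprints, the mRNA pieces that ribosomes shield from nuclease, were sequenced from ileum, the distal small intestine. The mice were wild type, strain C57BL/6, aged 21 days after birth. A single library represents the fed state and a single library a 48 h fast. The sources used here do not give the number or sex of the mice.

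A gene's footprint count reflects both the amount of its mRNA and how heavily that mRNA was translated, and no matched mRNA library was analysed here. With 1 library per condition, every difference below is between these 2 libraries and has no replicate check. Bulk ileum mixes many cell types, so fewer cells of a type and less RNA per cell cannot be told apart. Gene counts summed to 5558620 (fed) and 5434252 (fasted). Ratios are fasted over fed after TMM scaling (a scaling that sets the typical gene's ratio near 1), on the log2 scale, with a 95% exact Clopper-Pearson interval on the split of the counts that covers counting error only. A gene needed a sum of 30 counts to be called measured. It was called higher or lower (in the fasted library) where it differed 1.5-fold or more and its interval left out equality. Dividing by the total gene count alone (plain CPM) shifts every log2 ratio by -0.32, so a TMM ratio between 0 and 0.32 turns to the other sign there.

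Initiation begins when eIF2 with GTP brings the initiator tRNA to the small ribosomal subunit, helped by eIF1, eIF1A, eIF5 and the large scaffold eIF3. The eIF4F group (the cap-binding eIF4E, the scaffold eIF4G and the helicase eIF4A) brings this complex to the capped mRNA end, eIF5B joins the large subunit, and eIF2B recharges eIF2. In elongation, eEF1A delivers aminoacyl-tRNA, the eEF1B complex recharges eEF1A, and eEF2 moves the ribosome by a codon. Many of these mRNAs, the elongation factors above all, carry a 5' terminal oligopyrimidine (TOP) tract, a run of C and T bases (C and U in RNA) at the cap that couples their translation to nutrient signalling through mTORC1.

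The 5' ends of 9 members are printed here because the ratios of members on a list of classical TOP mRNAs are set beside those of the other members. Each is the first 30 bases of the gene's chosen GENCODE vM21 transcript (GRCm38, the assembly of mm10), with the longest C/T run that begins with C in capitals where it has at least 7 bases.
Eef2 (chromosome 10, plus strand, first base 81176631): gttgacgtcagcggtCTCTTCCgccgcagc
Eif3e (chromosome 15, minus strand, first base 43282719): gaacaagcgCTCCTTTCCCCCggcaagatg
Eif3f (chromosome 7, plus strand, first base 108934417): CTCTTTCTCggcaagatggcttctccggcc
Eif4b (chromosome 15, plus strand, first base 102073773): cgccgcgccaCCCCCTCgcgctgctttacg
Eif3c (chromosome 7, minus strand, first base 126566411): aaCCTTTTCCTCTTCCggcgtcgtgcctgt
Eif3k (chromosome 7, minus strand, first base 28981814): acaCCTCTCTTCCggtcctctagtgctaag
Eif4h (chromosome 5, minus strand, first base 134639347): ggtCCTTCCTCgctggcccgctggttcctc
Eef1a1 (chromosome 9, minus strand, first base 78481724): ttcccgagggtgggggagaacggtatataa
Eif6 (chromosome 2, minus strand, first base 155826925): ctcatcttttcatttgcccagcctcaggtt
The first 4 with a run (Eef2, Eif3e, Eif3f and Eif4b) belong to the 9 genes listed here as classical TOP factors, and the next 3 with a run do not. Searched on the gene's own strand, 13 of the 57 protein-coding members (22.8%) held such a run, against 2365 of 19783 protein-coding genes with an annotated 5' UTR (12%). An annotated transcript start need not be the start used in ileum, and only 4 of the 9 classical TOP factors show a run in this window. The run may lie anywhere in the window, not only at the cap, so it need not be a TOP tract. Eef1a1, for which no run is marked, has the letters tatataa inside its annotated first 30 bases.

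Of the 61 members, 56 had a read in at least 1 library and 51 were measured. The 4 pseudogene rows (Eif1-ps1, Eif3s6-ps1, Eif4a-ps4 and Eif5al3-ps) and Eif3j1 had no read in either library. The 5 members with reads but under 30 counts were Eif1 with 2 fed and 1 fasted count, Eif2s3x with 10 and 3, Eif4a1 with 10 and 5, Eif3j2 with 7 and 6, and Eif5a2 with 2 and 3. These low counts went with how much of each gene can be counted. The authors' counts leave out reads aligned to several places, and in Eif4a1, the main eIF4A helicase, 0.588% of the 28-letter windows of the coding sequence were found in no other annotated gene. Its closest copy is the pseudogene row Eif4a-ps4, which shares 97.7% of its windows. In Eif1 the share was 0.962%, in Eif2s3x 4.97%, and in Eif3j1 and Eif3j2, near-identical to each other, 0%. Eif5a2, the other eIF5A gene, differed from these, since its whole coding sequence (100%) is unique and it was still read 5 times in sum. Of the 57 protein-coding members, 14 had under 50% and 28 at least 95% unique coding sequence. The search covered annotated transcripts only, on both strands, so it also counts genes that overlap at the same locus and misses copies outside the annotation.

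**Figure D1:**
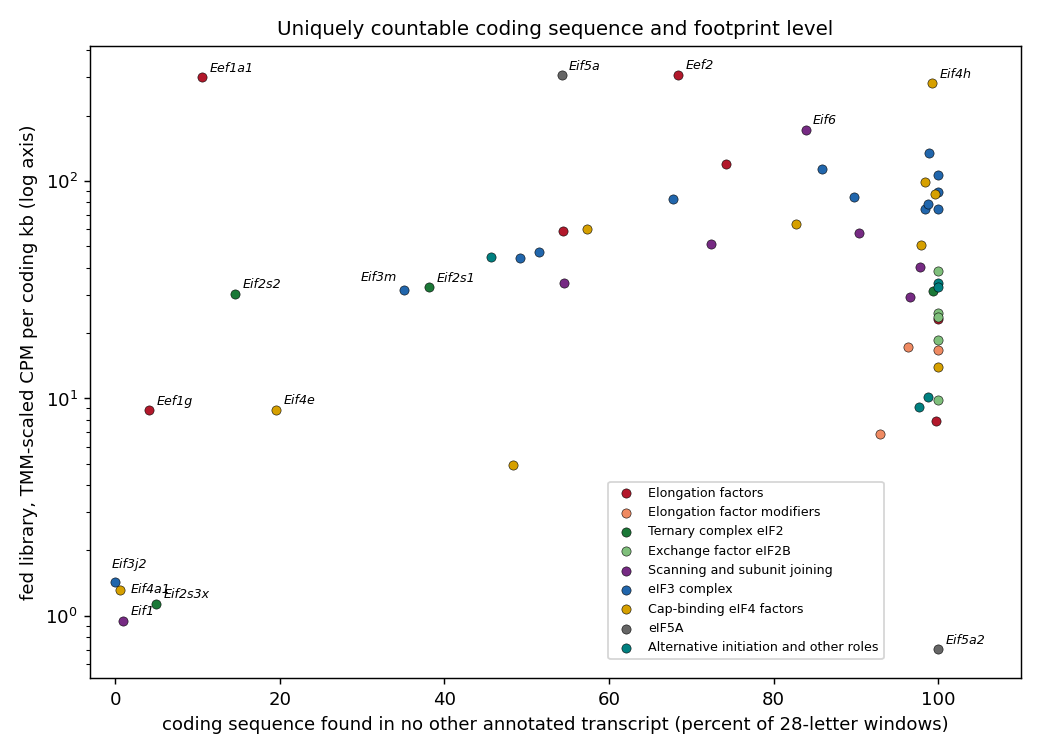
Share of each member's coding sequence found in no other annotated gene (x axis, percent of 28-letter windows) against its fed footprint level (y axis, TMM-scaled CPM per kb of coding sequence, log axis), 1 point per member with a fed read, coloured by role. Eif1, Eif2s3x, Eif4a1 and Eif3j2 lie at the lower left with under 5% unique sequence, and Eif5a2 is low with 100%.

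Summed over all members, translation factors took 0.577% of gene counts in the fed library (95% exact binomial interval 0.571% to 0.583%) and 0.380% in the fasted library (0.375% to 0.385%). These shares use no TMM scaling. The elongation factor rows went from 0.160% to 0.0522%, and the initiation factor rows from 0.417% to 0.328%. With TMM scaling the summed log2 ratio of the elongation factor rows was -1.29 (-1.35 to -1.23). That of the initiation factor rows was -0.03 (-0.05 to 0.003). Eef1a1 and Eef2 alone made up 0.135% of fed and 0.0403% of fasted gene counts. Of the 51 measured members, 10 were lower in the fasted library, 3 were higher and 38 were neither. Over all 11333 measured genes 17.3% were lower and 17.3% higher, and over the members 19.6% and 5.88%, so the share of lower members was near that of all genes. With plain CPM 23 members were lower and 0 higher, beside 31.2% and 8.86% of all measured genes. The median log2 ratio of measured members was -0.22 (0.003 over all measured genes), and with plain CPM -0.54 (-0.32 over all). In all, 33 of 51 members had a ratio below 0 with TMM scaling, beside 5667 of 11333 measured genes. With plain CPM, which lowers all ratios alike, 45 members and 7883 of all measured genes did. The calls were not spread evenly over countability. Of the 27 measured members with at least 95% unique coding sequence 2 were lower (Eef1akmt1 and Eif3b), of the 15 with 50% to 95% 4 were lower, and of the 9 below 50% 4 were lower. The summed log2 ratios of these groups were -0.04, -0.42 and -0.98, and their medians -0.20, -0.23 and -0.44. Eef2 gave 4933 of the 12894 fed and 1482 of the 7511 fasted counts of the 50% to 95% group. Eef1a1 gave 2580 of the 4045 fed and 709 of the 1603 fasted counts of the group below 50%. These genes thus weigh heavily in the sums. The part of shared sequence in these ratios was not tested.

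**Figure D2:**
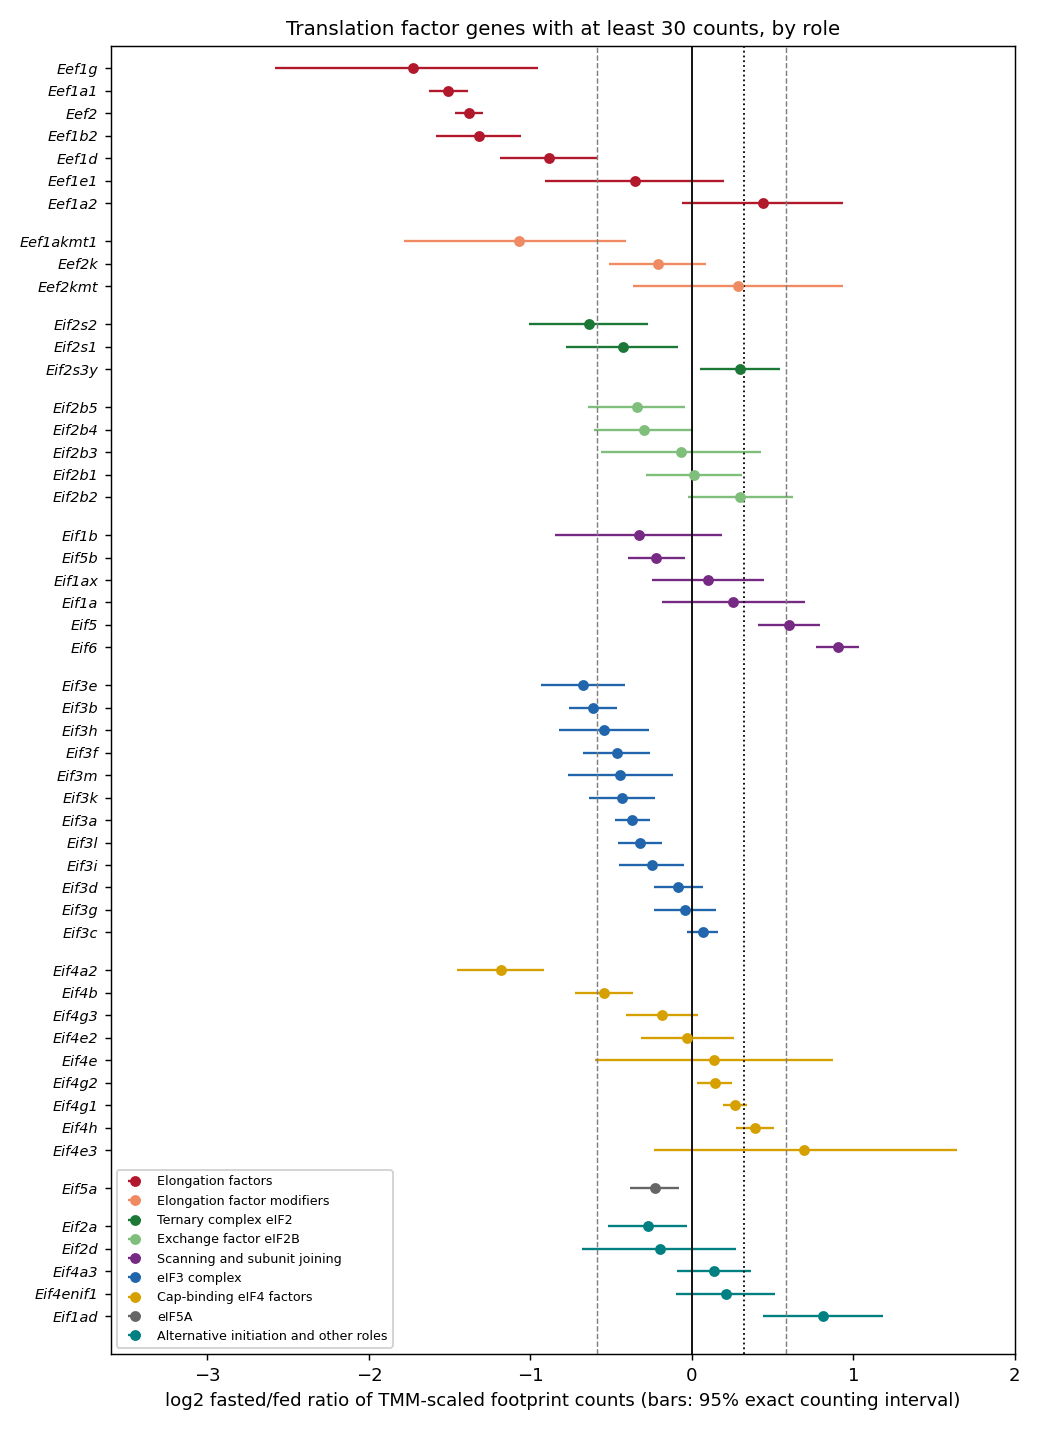
Log2 fasted/fed ratio of TMM-scaled counts (x axis) for the 51 measured members, grouped and coloured by role, with 95% exact counting intervals as bars. The solid line is 0, the dotted line marks where a plain CPM ratio would be 0, and the dashed lines mark 1.5-fold. The elongation factors Eef1g, Eef1a1, Eef2, Eef1b2 and Eef1d sit at -0.88 or lower, while Eif5, Eif6 and Eif1ad lie above 0.58.

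Of the 10 lower members 5 were in the elongation factor list. Of its 7 genes 5 were lower, 0 higher and 2 neither, at a median log2 ratio of -1.31 (-1.64 with plain CPM, where 6 were lower). Over all measured genes 17.3% were lower (31.2% with plain CPM). Eef2, the translocase (chromosome 10, 81176631 to 81182498), had 4933 counts when fed and 1482 when fasted. It was 2.60-fold lower in the fasted library (log2 ratio -1.38, interval -1.46 to -1.29), and ranked 321st when fed and 1067th when fasted among 16360 genes by CPM per kb of coding sequence. Eef1a1, the tRNA carrier (chromosome 9, 78478449 to 78489151), had 2580 and 709 counts and was 2.84-fold lower (-1.51, -1.63 to -1.39). Its rank went from 333rd to 1175th, although only 10.6% of its coding sequence is unique and 23 annotated pseudogenes share windows with it. The subunits of eEF1B, the nucleotide exchange complex, were lower too. Eef1b2, the alpha subunit, had 501 and 157 counts (-1.32, -1.59 to -1.06), and Eef1d, the delta subunit, had 309 and 131 (-0.88, -1.19 to -0.58). Eef1g, the gamma subunit, had 72 and 17 counts (-1.73, -2.58 to -0.95) from the 4.13% of its coding sequence that is unique.

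Eef1a2 and Eef1e1, which were neither higher nor lower, are also the 2 genes of the list with at least 95% unique coding sequence (99.8% and 100%). The 5 lower ones range from 4.13% (Eef1g) to 74.2% (Eef1b2), and the part of shared sequence in their ratios was not tested. Eef1a2 is the eEF1A of muscle and neurons. It had 68 fed and 72 fasted counts (0.44, -0.06 to 0.94; 0.11 with plain CPM), so the Eef1a1 count per Eef1a2 count was 37.9 when fed and 9.85 when fasted. Eef1e1 encodes a small scaffold protein of the multi-tRNA-synthetase complex and had 75 and 46 counts (-0.35, -0.91 to 0.20). It was lower only with plain CPM (-0.67). Among the enzymes that modify elongation factors, Eef1akmt1, a lysine methyltransferase acting on eEF1A, was lower with 70 and 26 counts (-1.07, -1.78 to -0.41). Eef2k, the kinase that inhibits eEF2, had 234 and 158 counts (-0.21, -0.51 to 0.09), and Eef2kmt, an eEF2 methyltransferase, 43 and 41 (0.29, -0.37 to 0.94; -0.04 with plain CPM). The Eef2k count per Eef2 count was 0.0474 when fed and 0.107 when fasted, 2.25-fold higher (95% Wald interval of the odds ratio 1.82 to 2.77).

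A ratio of counts within a library does not depend on the scaling. The elongation factor list gave 0.368 counts per initiation factor count when fed and 0.147 when fasted, 0.399 times the fed value (Wald interval 0.380 to 0.418). Eef2 gave 1.66 counts per Eif4g1 count when fed and 0.531 when fasted. Eef1a1 and Eef2 make up most of the elongation factor sum, and Eef1a2 and Eef1e1 were not lower. These pairs, like every other pair set against each other within a library in this text, were chosen after the counts had been seen. They describe the same counts in another way.

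**Figure D3:**
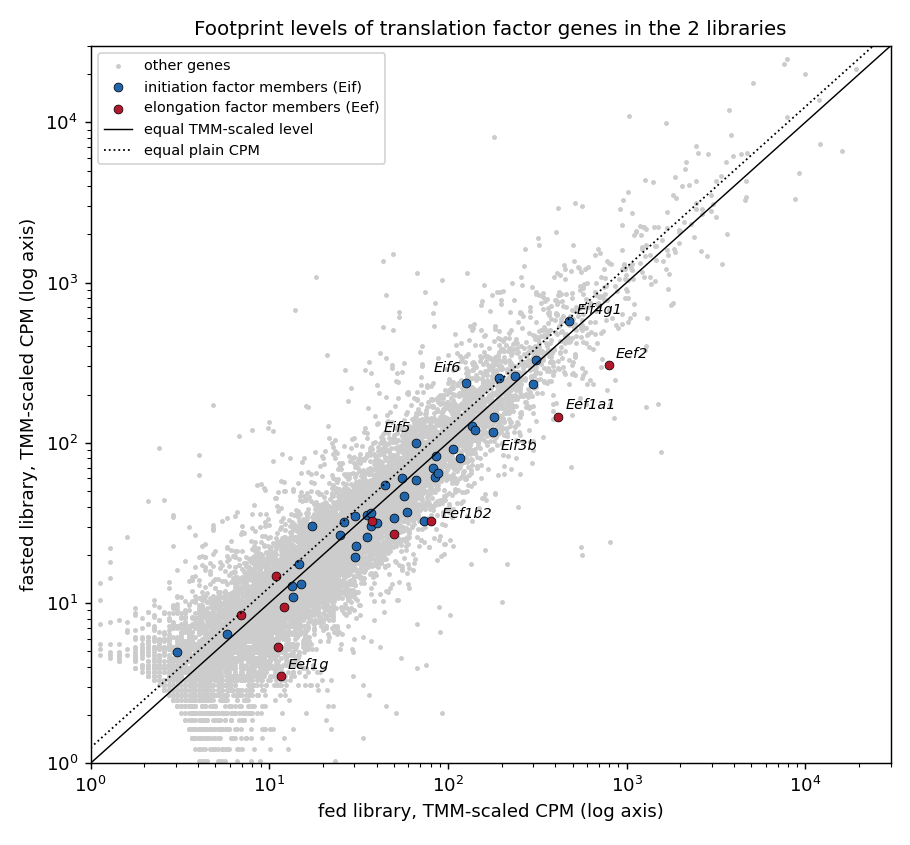
TMM-scaled CPM in the fed (x axis) and fasted (y axis) library, both log axes, for measured genes, with genes at 0 in either library left out. Eef2 and Eef1a1 lie below the solid line of equal TMM-scaled level, Eif6 and Eif5 above it, and Eif4g1 lies between it and the dotted line of equal plain CPM.

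The 9 genes listed as classical TOP factors (Eef1a1, Eef1b2, Eef1d, Eef1g, Eef2, Eif3e, Eif3f, Eif3h and Eif4b) had 6 lower, 0 higher and 3 neither, at a median log2 ratio of -0.88. With plain CPM all 9 were lower, at a median of -1.20, beside 31.2% of all measured genes (17.3% with TMM scaling). The 3 that missed 1.5-fold had whole intervals below 0, namely Eif4b, Eif3h and Eif3f. Among the 42 other measured members 4 were lower, 3 higher and 35 neither, at a median of -0.07 (-0.40 with plain CPM). The lower genes of the classical list were Eif3e and the elongation factors already described as lower, so these are largely the same counts. Of the 27 measured members with at least 95% unique coding sequence, only Eif3f is on that list, and it was not called. The other genes of the list range from 4.13% (Eef1g) to 82.7% (Eif4b). The part of shared sequence in the difference between the list and the other members was not tested. Of the 11 measured members with a C/T run in the printed window, 2 were lower (Eef2 and Eif3e), 0 higher and 9 neither, at a median of -0.25, and the 40 without one had 8 lower and 3 higher at -0.21. Eif3c, with the longest run of those printed, had 1936 and 1587 counts (0.07, -0.03 to 0.16), and Eif4h, also with a run, had 1200 and 1229. The run in the annotated window thus did not divide the members as the classical list did.

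The eIF3 scaffold had 12 measured subunits of 14 listed, of which 2 were lower, 0 higher and 10 neither, at a median of -0.40. With plain CPM 8 were lower (median -0.72), beside 31.2% of all measured genes (median -0.32). The lower ones were Eif3b, a core subunit that binds RNA, with 1110 fed and 568 fasted counts (-0.61, -0.76 to -0.46), and Eif3e, which had 369 and 181 (-0.67, -0.94 to -0.41). Eif3h (309 and 166 counts; -0.54, -0.82 to -0.26) and Eif3f (525 and 297; -0.47, -0.68 to -0.26), a pair of related subunits, lay just inside the 1.5-fold bound. Eif3a, the largest subunit, had 1872 and 1134 counts (-0.37, -0.47 to -0.26). Eif3k (545 and 316 counts; -0.43), Eif3m (219 and 126; -0.44), Eif3l (1125 and 705; -0.32) and Eif3i (512 and 337; -0.25) also had intervals below 0. Only 3 measured subunits had intervals that include 0, namely Eif3c, Eif3d (844 and 623 counts; -0.08) and Eif3g (532 and 404; -0.04). The Eif3c count per Eif3b count, both core subunits, was 1.74 when fed and 2.79 when fasted, 1.60-fold higher (Wald interval 1.42 to 1.81). This pair was chosen after the counts had been seen. Eif3c had the highest ratio of the measured subunits, and Eif3b was 1 of the 2 lower ones.

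Levels of eIF3 subunits can be compared per kb of coding sequence. In the fed library they spanned 31.4 (Eif3m) to 134 (Eif3k) TMM-scaled CPM per kb, a 4.27-fold range. The lowest 3, Eif3m, Eif3e and Eif3h, have 35.1%, 49.2% and 51.5% unique coding sequence. Per kb of unique coding sequence the 12 subunits spanned 74.7 (Eif3a) to 136 (Eif3k), a 1.82-fold range, in the fed library and 49.3 (Eif3b) to 139 (Eif3c), a 2.82-fold range, in the fasted library. So the subunits were read at closer levels in the fed library on that scale. Among the 6 subunits with at least 95% unique coding sequence the range was 1.81-fold when fed and 2.05-fold when fasted.

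**Figure D4:**
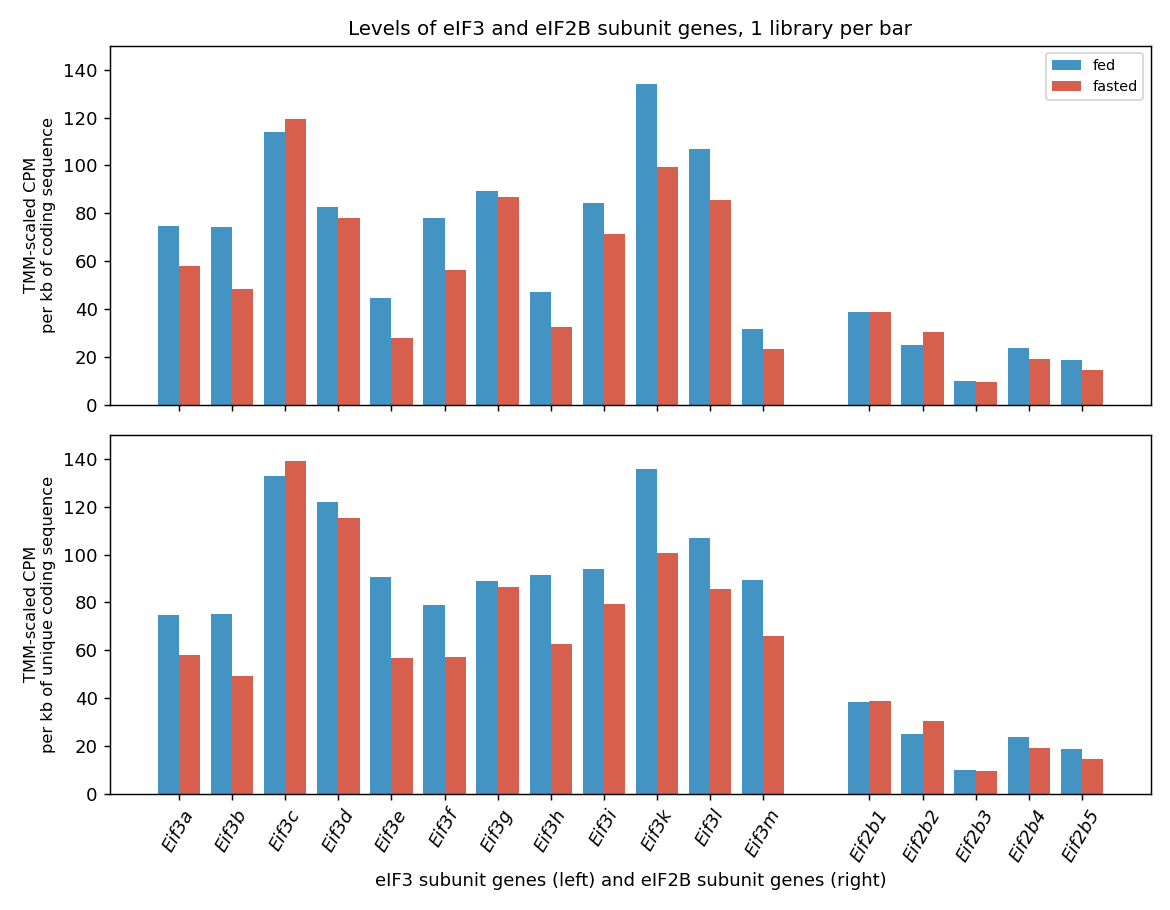
TMM-scaled CPM per kb of coding sequence (top) and per kb of unique coding sequence (bottom) for the measured eIF3 and eIF2B subunit genes, 1 library per bar, with no error bars because each condition has 1 library. On the lower panel the fed eIF3 bars run from 74.7 to 136, and the eIF2B bars stay below 39.

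eIF2B, the exchange factor that recharges eIF2, was read at lower levels. Its 5 subunit genes are fully unique and spanned 9.85 (Eif2b3) to 38.5 (Eif2b1) TMM-scaled CPM per kb in the fed and 9.41 to 38.9 in the fasted library. The order Eif2b1, Eif2b2, Eif2b4, Eif2b5, Eif2b3 was the same in both. None of the 5 was higher or lower, with log2 ratios from -0.34 for Eif2b5 (248 and 153 counts; -0.64 to -0.05), the catalytic epsilon subunit, to 0.30 for Eif2b2 (162 and 156 counts; -0.03 to 0.63). Eif2b4 had 231 and 147 counts, Eif2b1 219 and 173, and Eif2b3 83 and 62. With plain CPM Eif2b4 and Eif2b5 were lower.

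Of eIF2 itself, Eif2s2, the beta subunit, was lower with 187 fed and 94 fasted counts (-0.64, -1.01 to -0.27), from the 14.6% of its coding sequence that is unique. Eif2s1, the alpha subunit that stress kinases phosphorylate, had 191 and 111 counts (-0.43, -0.78 to -0.08), and only plain CPM called it lower. The gamma subunit has a copy on each sex chromosome. The Y-linked Eif2s3y had 276 and 265 counts (0.30, 0.05 to 0.55; -0.03 with plain CPM), so tissue of males was in both libraries, while Eif2s3x is nearly uncountable (above). The other Y-linked genes had footprints in both libraries too, with Ddx3y at 211 and 296 counts (0.84), Kdm5d at 155 and 95 (-0.35, -0.74 to 0.03) and Uty at 158 and 132 (0.10, -0.25 to 0.44), with ratios on both sides of 0.

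Both members of the scanning and joining group that passed the fold were higher. Eif6 (chromosome 2, 155819832 to 155826925), which binds the free large ribosomal subunit, keeps it apart from the small one and takes part in making it, had 787 fed and 1151 fasted counts. It was 1.87-fold higher in the fasted library (0.90, 0.77 to 1.04), and its rank per kb went from 602nd to 384th. With plain CPM its log2 ratio was 0.58, with an interval of 0.45 to 0.71, just under 1.5-fold. The Eif6 count per eIF3 count was 0.0795 when fed and 0.178 when fasted, 2.25-fold higher (Wald interval 2.04 to 2.47). Eif5 (chromosome 12, 111538016 to 111546752), the GTPase activator of eIF2, had 411 and 488 counts and was 1.52-fold higher (0.60, 0.41 to 0.80), at 0.28 with plain CPM. It lost its call with plain CPM and with upper-quartile scaling. The GTPase eIF5B, which acts after eIF5, had 661 and 444 counts (Eif5b; -0.22, -0.40 to -0.04). The start-codon factors were neither higher nor lower, with Eif1ax at 155 and 130 counts (0.10, -0.25 to 0.45), Eif1a at 91 and 85 (0.26, -0.19 to 0.70) and Eif1b at 85 and 53 (-0.33, -0.85 to 0.19). Eif1ax and Eif1a change sign with plain CPM.

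Among the cap-binding group 1 of 9 measured genes was lower and 0 were higher. That gene was Eif4a2, an eIF4A helicase (chromosome 16, 23107444 to 23114136), with 456 fed and 157 fasted counts, 2.27-fold lower (-1.18, -1.45 to -0.92). Its relative Eif4a3, a helicase of the exon junction complex on spliced mRNA, had 343 and 295 counts (0.14, -0.09 to 0.37; -0.18 with plain CPM). The Eif4a2 count per Eif4a3 count was 0.400 times its fed value in the fasted library (Wald interval 0.315 to 0.508). The unique share of the coding sequence is 57.3% in Eif4a2 and 45.6% in Eif4a3, and Eif4a1 was not measured. The part of shared sequence in these ratios was not tested. Eif4b, which stimulates eIF4A, had 724 and 388 counts (-0.54, -0.73 to -0.36). Eif4h, which also stimulates eIF4A, had a ratio of 0.39 (0.27 to 0.51; 0.07 with plain CPM). Per kb of coding sequence Eif4h stood highest of the cap-binding group, at 282 TMM-scaled CPM when fed and 370 when fasted.

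None of the eIF4G scaffolds reached 1.5-fold. Eif4g1, the main scaffold (chromosome 16, 20668313 to 20692884), was the member with most counts after Eef2 in the fed library and with most in the fasted library, 2966 and 2790 (0.27, 0.19 to 0.34; -0.06 with plain CPM). Eif4g2, which lacks the eIF4E binding site, had 1467 and 1265 counts (0.14, 0.03 to 0.25; -0.18 with plain CPM), and Eif4g3 had 411 and 283 (-0.18, -0.41 to 0.04). Eif4g1 gave 7.22 counts per Eif4g3 count when fed and 9.86 when fasted. Of the cap-binding proteins, Eif4e had 36 and 31 counts (0.14, -0.60 to 0.87; -0.18 with plain CPM) from 19.6% unique coding sequence, so this depth could not show a difference of that size. Eif4e2, which binds caps without recruiting eIF4G, had 232 and 178 (-0.03, -0.32 to 0.26). Eif4e3 had 19 and 24 counts (0.69, -0.24 to 1.64).

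Eif5a, the hypusine-bearing factor that helps ribosomes through hard-to-join residues such as proline runs, had 883 and 588 counts (-0.23, -0.38 to -0.08). Per kb of coding sequence it stood at 307 TMM-scaled CPM in the fed library, beside 308 for Eef2 and 299 for Eef1a1. In the fasted library the values were 262, 118 and 105 in the same order. Per kb of unique coding sequence the order differs, with Eef1a1 at 2825 (fed) and 993 (fasted), Eif5a at 567 and 483, and Eef2 at 450 and 173. Of members with other roles, Eif1ad, a protein with an eIF1A-like domain, was higher with 108 and 148 counts (0.81, 0.44 to 1.18) and 0.49 with plain CPM. The factors for other routes of initiator tRNA delivery, Eif2a (351 and 227 counts; -0.27, -0.52 to -0.03) and Eif2d (94 and 64; -0.20, -0.68 to 0.27), were neither, nor was Eif4enif1, the eIF4E transporter (187 and 169; 0.21, -0.10 to 0.52; -0.11 with plain CPM).

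Other genes of the pathway were taken from lists, to be read beside the shares of all measured genes. These were 17.3% lower and 17.3% higher, and with plain CPM 31.2% and 8.86%. Of 7 genes for inhibitors of initiation 3 were higher and 2 lower (2 and 3 with plain CPM, where Eif4ebp2, with 92 and 49 counts, was lower). Higher were the eIF4E-binding repressors Eif4ebp3 (8 fed and 88 fasted counts; 3.81, 2.77 to 5.07) and Eif4ebp1 (39 and 76), and the eIF2 kinase Eif2ak1 (248 and 330; 0.77, 0.53 to 1.01), which did not reach 1.5-fold with plain CPM. Only 36.2% of the Eif4ebp3 coding sequence is unique. Lower were Eif2ak2, the double-stranded RNA sensor PKR (231 and 55; -1.72, -2.17 to -1.29), and Eif2ak4, the amino acid sensor GCN2 (45 and 16; -1.14, -2.06 to -0.29). Termination and recycling genes had 1 of 9 lower, Mcts1 (160 and 78; -0.68), and 0 higher (2 lower with plain CPM). The release factors Etf1 (522 and 406; -0.01, -0.20 to 0.18) and Gspt1 (710 and 561; 0.02, -0.15 to 0.18; -0.31 with plain CPM) and the recycling ATPase Abce1 (385 and 282; -0.09, -0.32 to 0.13) were neither.

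Of 19 measured other cofactors 3 were higher, 3 lower and 13 neither (0 higher and 6 lower with plain CPM). Lower were Pabpc1, Rack1 and Dhx29, a helicase for structured 5' ends (155 and 55; -1.14, -1.61 to -0.69). Pabpc1 had 602 and 113 counts (-2.06, -2.36 to -1.77) and Rack1 2125 and 528 (-1.65, -1.79 to -1.515). Higher were the helicase Ddx3x (2052 and 2442; 0.61, 0.52 to 0.69), Larp4 (213 and 261; 0.65, 0.38 to 0.92) and Ppp1r15a, the eIF2 phosphatase subunit GADD34 (14 and 26; 1.25, 0.26 to 2.30), and with plain CPM none of the 3 was called. The unique share of the coding sequence is 28.4% in Larp4, 46.7% in Pabpc1 and 94.5% in Rack1. Mitochondrial translation factors had 7 of 11 measured genes lower and 0 higher, at a median of -0.63, beside 17.3% of all measured genes lower. With plain CPM 10 were lower, at a median of -0.95, beside 31.2%. By the interval bound nearest to 1 the lowest were Mtrf1l, a release factor (73 and 18; -1.66, -2.50 to -0.91), Mrrf, the recycling factor (53 and 13; -1.67, -2.67 to -0.78), and Tufm, the mitochondrial counterpart of eEF1A (44 and 10; -1.78, -2.94 to -0.77). In Tufm only 4.21% of the coding sequence is unique. Enzymes of hypusine and diphthamide, the modified residues of eIF5A and eEF2, had 2 of 8 measured genes higher and 0 lower. The higher ones were Dohh (69 and 132 counts), with 11.5% unique coding sequence, and Dph6 (32 and 44). Selenocysteine translation genes had 2 of 7 higher, Sephs2 (361 and 730; 1.37, 1.19 to 1.56) and Secisbp2 (105 and 128), and 0 lower. With plain CPM Dph6 and Secisbp2 were not called.

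Markers of the cell types in the tissue differed between the libraries as well. Over all measured genes 17.3% were lower and 17.3% higher (31.2% and 8.86% with plain CPM). Ileal enterocyte markers had 8 of 14 genes higher and 0 lower (6 higher and 1 lower with plain CPM). Fabp6, the ileal bile acid binding protein, was not among the higher ones, with 28873 and 16615 counts (-0.44). Epcam (0.03), Krt20 (0.02), Cdh1 (0.15), Slc10a2 (0.315) and Alpi (0.58) were neither. The list made up 5.28% (fed) and 8.66% (fasted) of gene counts. Of its 293725 fed counts, Apob, Apoa1 and Sis gave 62096, 49024 and 47401. Of its 470845 fasted counts they gave 96936, 121464 and 112004, so these genes weigh heavily in the share and the sum. Markers of dividing crypt cells had 10 of 12 lower (0.137% and 0.0495%) and smooth muscle markers 7 of 9 (0.569% and 0.245%). Fibroblast markers had 6 of 9 lower and 2 higher (0.605% and 0.206%), and lymphoid and plasma cell markers 8 of 10 lower (1.48% and 0.707%). Igha (-0.73) gave 75600 of the 82280 fed and 35609 of the 38406 fasted counts of the lymphoid and plasma cell list. Ighm (-0.03) and Cd3e (-0.44) of that list were neither. Of the 33631 fed fibroblast marker counts, the collagens Col3a1, Col1a1 and Col1a2 gave 9379, 8006 and 5325. Of the 11185 fasted counts they gave 854, 809 and 1197. Of the other genes Dcn (0.83) and Pdgfra (0.72) were higher, and Lum (-1.46) and Dpt (-0.62) lower. No gene of these lists was at 0. Summed log2 ratios were 1.04 for enterocyte, -1.15 for dividing-cell, -0.89 for smooth muscle, -1.23 for fibroblast and -0.74 for lymphoid and plasma cell markers. They were -1.35 for the elongation factor list and -0.03 for the initiation factor rows. The part of these cell types in the ratios of the translation factors was not tested.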

How the data were processed

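The authors deposited raw read counts per gene symbol, made from nuclease-treated ileal lysate. Per the labels' protocols, footprints were spun through sucrose, cleared of rRNA and amplified by PCR. The submitters' processing notes list cutadapt, STAR, HTSeq, Bowtie 1.1.2 and mm10 without saying what each did. No source used here states the annotation or strand setting, so overlapping and antisense genes cannot be told apart. Reads given to no gene were left out of totals: those aligned to several places (41.4% of the fed and 39.9% of the fasted file), on no feature (13.4% and 21%) or ambiguous (0.209% and 0.196%). NA was read as 0, which allows up to 3 counts (0.540 and 0.552 CPM).

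TMM factors came from edgeR 4.0.16 (R 4.3.3), used for scaling only, and no p-value was computed with 1 library per group. List medians use 0.5 added counts. PCR copies are not independent molecules, and every interval and floor reflects only counting error. The ratio and interval functions were tested on simulated libraries. GENCODE vM21 gave coordinates (1-based), 5' ends and coding lengths for all 61 symbols, from the transcript with a complete coding sequence, then by APPRIS rank, CCDS membership and coding length. All members are accounted for. From each list of other translation genes, up to 3 measured genes per direction are named by the interval bound nearest to 1. Etf1, Gspt1, Abce1, Eif4ebp2, Fabp6, the other single cell type markers and the Y-linked genes were named after their values had been seen. The pairs of counts within a library were also chosen after the counts had been seen. The C/T run was added after the data had been seen. The members and lists were chosen with earlier results of these data known. Alternatives were plain CPM, DESeq2 1.42.0 median-ratio factors, upper-quartile factors, TMM without abundant genes and members, other minimum counts, folds, intervals and added counts, and means.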

Additional observations from a re-analysis of the deposited data

How the results depend on the processing

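No paired analysis was possible because each group has 1 library and the labels carry no replicate numbers, and no replicate could be left out. Plain CPM moved the members' count lower from 10 to 23, the count higher from 3 to 0 and the median log2 ratio from -0.22 to -0.54. A 2-fold threshold left 6 lower and 0 higher. Median-ratio, upper-quartile and TMM factors without abundant genes and members gave 10 lower and 2 or 3 higher, with a median between -0.24 and -0.22, and all 51 single ratios stayed inside their own intervals. With plain CPM 34 of 51 left their intervals, and no called member changed sign. A minimum of 200 counts gave 8 lower and 3 higher, and members with at least 95% unique coding sequence had a median of -0.20 with 2 of 27 lower, against -0.44 with 4 of 9 lower below 50%, an alternative chosen after seeing the data. The summed share of gene counts was 0.691% when fed and 0.475% when fasted without the 20 most abundant genes in the total, and 0.442% and 0.340% without Eef1a1 and Eef2. The median level of measured members was 44.5 TMM-scaled CPM per kb of coding sequence when fed and 38.5 when fasted, and 75.4 and 57.9 per kb of its unique part. Depth limits members under 100 counts, such as Eif4e and Eif4e3, and the 5 members with reads but under 30.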
